A study of Mus musculus with 9 samples.

Results

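The transcription factors and cofactors of excitatory neurons followed here across the layers of the mouse piriform cortex were Neurod1, Neurod2, Neurod6, Bhlhe22, Prdm8, Lmo3, Lmo4, Lhx2, Emx1 and Mef2c. They are 10 of the 33958 annotated genes with counts, and each was taken by name and represented by the transcript with the highest mean count over the 9 samples. All samples came from the piriform cortex of wild-type C57BL/6 mice, for which the sample labels give an age of 8 weeks and the methods 10 weeks. Fresh-frozen coronal sections of 30 μm were cut, and layers A, B and C were collected by laser-capture micro-dissection, with 3 samples of each layer. The labels give no key from these letters to the numerals of the piriform layers, so the letters are used as they stand. No treatment or genotype separates the groups, and the comparison is between layers only. Nothing states that the replicates came from separate animals, so p-values measure the spread between these samples, which may be partly technical.

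The piriform cortex is an olfactory cortex whose superficial layer holds mostly axons, dendrites, glia and sparse interneurons, while the deeper layers hold the cell bodies of glutamatergic neurons. Basic helix-loop-helix (bHLH) factors of the NeuroD family pair with E proteins, bind short DNA words called E-boxes and drive the differentiation of glutamatergic neurons. LIM-only proteins carry LIM domains without a DNA-binding domain and act as bridges in complexes with LDB cofactors, which also bind LIM-homeobox factors such as Lhx2. Mef2c is a MADS-box factor that regulates activity-dependent genes and synapse number in cortical neurons.

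The coding sequences of related members are alike enough to be aligned and different enough to be counted apart, and a stretch of 60 bases read from the GENCODE transcripts shows this. For the bHLH members the stretch lies in the coding sequence of the bHLH domain, and it is shown because the factors of this family share it. Capitals mark bases equal to those of Neurod1, and in the line for Neurod1 they mark bases common to all 4 genes.
Neurod1: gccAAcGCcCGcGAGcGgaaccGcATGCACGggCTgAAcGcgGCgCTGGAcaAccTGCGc
Neurod2: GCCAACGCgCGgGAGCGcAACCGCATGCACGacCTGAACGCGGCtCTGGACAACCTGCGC
Neurod6: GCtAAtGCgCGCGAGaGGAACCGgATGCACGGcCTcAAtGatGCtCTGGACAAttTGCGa
Bhlhe22: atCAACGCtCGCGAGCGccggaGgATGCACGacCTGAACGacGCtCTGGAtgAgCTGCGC
In the GRCm38 (mm10) assembly these stretches lie at chr2:79454663-79454722 on the minus strand (Neurod1, exon 2 of 2), chr11:98327899-98327958 on the minus strand (Neurod2, exon 2 of 2), chr6:55679297-55679356 on the minus strand (Neurod6, exon 2 of 2) and chr3:18055448-18055507 on the plus strand (Bhlhe22, exon 1 of 1). Neurod2 had 54 of the 60 bases of Neurod1, Neurod6 had 46 and Bhlhe22 had 43. The longest run of identical coding bases between any of these genes was 25, between Neurod1 and Neurod2, which is shorter than the reads of 50 bases.

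For the LIM-only pair the stretch is the part of the coding sequence most alike between both genes, with capitals where they have the same base.
Lmo3: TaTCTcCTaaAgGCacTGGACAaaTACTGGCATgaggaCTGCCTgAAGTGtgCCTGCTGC
Lmo4: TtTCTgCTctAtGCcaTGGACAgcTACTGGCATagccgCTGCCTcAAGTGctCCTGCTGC
It lies at chr6:138416492-138416551 on the minus strand (Lmo3, exon 3 of 5) and chr3:144201890-144201949 on the minus strand (Lmo4, exon 2 of 5), and 43 of 60 bases were equal. The longest run of identical coding bases of Lmo3 and Lmo4 was 9.

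The mean level of 8 of the 10 members was lowest in layer A. The levels are normalized CPM, which are counts scaled to library size. Of the 10 members, 6 differed among the 3 layers in 1 joint test, as did 18.5% of the 15180 highest transcripts tested. Between layers A and B, 5 members passed the test (20.9% of the highest transcripts in either direction), and all 5 (Neurod1, Neurod2, Prdm8, Lmo3 and Mef2c) were lower in layer A, while 7.65% of the highest transcripts were called lower there. Between layers A and C, 6 members (Neurod1, Neurod2, Neurod6, Prdm8, Lmo4 and Mef2c) were lower in layer A, against 5.47% of the highest transcripts (14.8% in either direction). Of these called members, Neurod6, Prdm8 and Lmo3 are in the study's own table of layer candidates from these samples. The member counts are therefore not independent of these data, and the shares beside them are a description. None passed the test between layers B and C, where 0.0% of the highest transcripts did. An unadjusted p under 0.05 was reached by 3 members (Neurod6, Bhlhe22 and Lmo3) in that comparison, and DESeq2 also called 0 members. Over all 56416 transcripts, edgeR called 0 in that comparison, with 2316 at an unadjusted p under 0.05, and DESeq2 called 124. The median log2 fold change of the members was -1.49 for layer A against layer B, -1.38 for layer A against layer C and 0.29 for layer B against layer C, where the medians of all highest transcripts were -0.16, -0.02 and 0.08. The comparisons with layer B and with layer C use the same 3 samples of layer A. In bulk tissue, fewer cells of a type and less RNA per cell cannot be told apart.

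**Figure D1:**
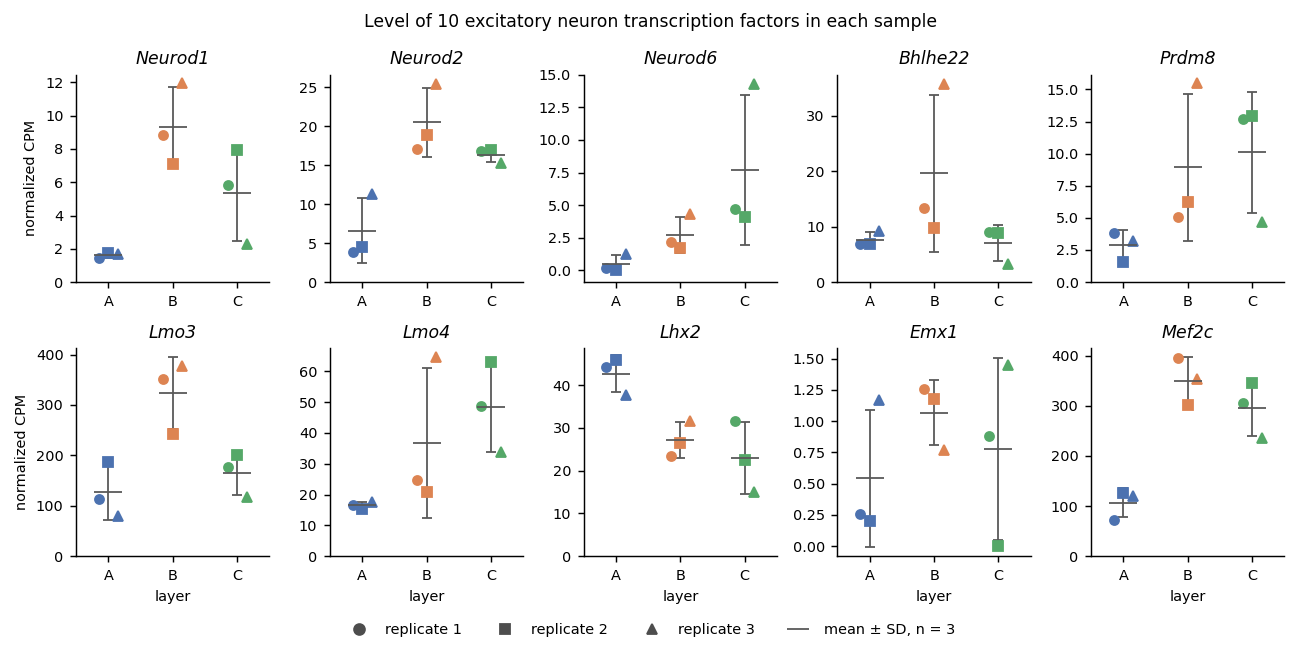
Normalized CPM (counts scaled to library size, linear axes) of the 10 genes in each of the 9 samples, by layer; points are samples, with a shape for each replicate number, and bars are the mean ± SD of 3 samples. Neurod1 and Mef2c are lower in every layer A sample than in every sample of layers B and C, Lhx2 is higher in every layer A sample, and layer B replicate 3 lies far above the other layer B samples for Bhlhe22, Prdm8 and Lmo4.

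Total counts ran from 23104306 to 76471683 per sample, and the mitochondrial ribosomal RNAs took 55.3% to 70.2% of the counts in layer A, 12.8% to 28.1% for layer B and 20.5% to 57.1% for layer C. At these depths 3 counts, taken as the limit of detection, corresponded to 0.0256 to 0.254 normalized CPM. The pan-neuronal list (led by Snap25 and Syt1) summed to 781 to 1304 normalized CPM in layer A, 2177 to 5619 for layer B and 2544 to 3364 for layer C, and 7 of its 7 genes were lower in layer A than layer B and 6 than layer C. The astrocyte list (led by Slc1a2 and Slc1a3) summed to 4905 to 10375 in layer A, with 681 to 1147 for layer B and 1223 to 1679 for layer C, and all 10 of its genes were higher in layer A in both comparisons. The microglial (Csf1r), endothelial (Slco1a4, Flt1) and meningeal and pericyte (Rgs5, Pdgfrb) lists were also higher in layer A, with 5 of 7, 6 of 6 and 7 of 7 genes called against layer B and 5 of 7, 5 of 6 and 7 of 7 against layer C. No gene of these lists was at 0 in all samples of a layer, and their part in the member results was not tested. Of 9 oligodendrocyte genes (Mbp), 4 were higher in layer A against layer B and 0 against layer C. Of 6 glutamatergic genes (Camk2a, Slc17a7), 2 were lower and 1 higher against layer B, and 3 lower and 1 higher against layer C. The interneuron list (Gad2, Sst) had 1 of 10 genes higher against layer B and 2 lower against layer C, and the immature neuron list (Dcx, Sox11) 1 of 4 tested lower against layer B. The striatal and olfactory tubercle list (Ppp1r1b) had 2 of 5 tested lower against layer B, and the claustrum and endopiriform list (Nr4a2, Gnb4) 1 of 3 lower against layer C. Camk2a, a kinase abundant in dendrites of glutamatergic neurons, was higher in layer A than layer B by a log2 fold change of 1.87 ± 0.33 (SE). Slc17a7, the vesicular glutamate transporter, stood at 70.6 to 142 normalized CPM in layer A, 165 to 314 for layer B and 118 to 238 for layer C.

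**Figure D2:**
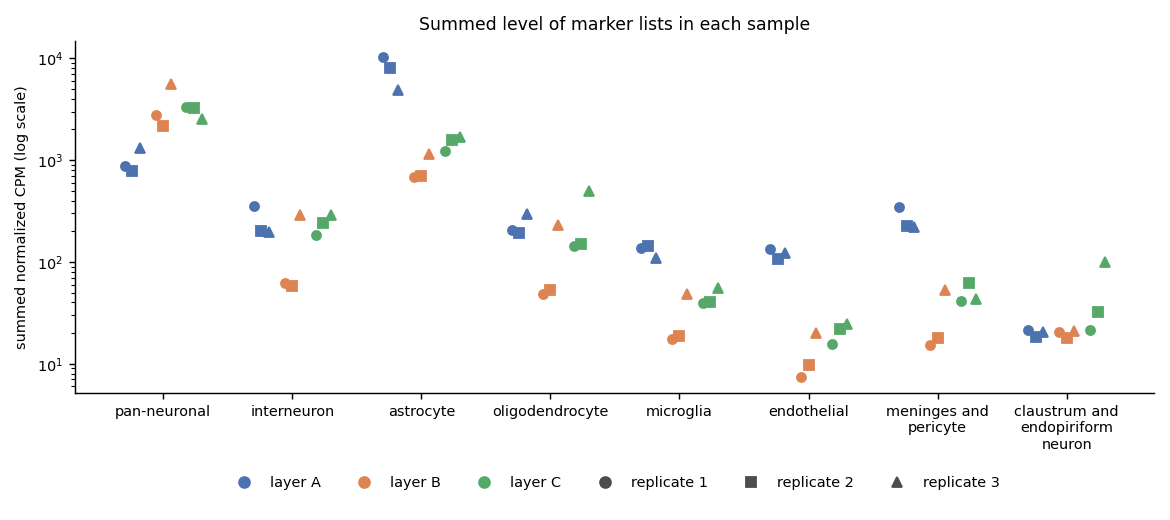
Summed normalized CPM (log axis) of 8 marker lists in each sample, coloured by layer and with a shape for each replicate number. The pan-neuronal sum is lowest in the 3 layer A samples, the astrocyte, microglial, endothelial and meningeal and pericyte sums are highest there, and layer B replicate 3 and layer C replicate 3 stand above their own layers for the interneuron and the claustrum and endopiriform lists respectively.

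Some samples stood apart within their layers. Replicate 3 had the highest total count in each of layers A, B and C (43705625, 44224318 and 76471683), and the part of depth in these differences was not tested. Layer B replicate 3 had an interneuron sum of 291 normalized CPM where the other layer B samples had 57.8 and 61.5, and its Sst, the somatostatin gene of a class of interneurons, was 72.9 where the others had 4.27 and 4.36. In layer C that sum was 183 to 290, and Sst was 49.1, 71.8 and 66.7, so in both the sample stood near layer C. Without layer B replicate 3, edgeR called 17 of 55684 transcripts between layers B and C, where it called 0 with all samples. That sample also had the lowest share of reads away from the 3' ends of genes. Over 9635 transcripts that end at least 1000 bases short of the highest transcript of their gene, the median log2 share, relative to the mean of the 9 samples, was -0.53 there and -0.01 to 0.24 in the other samples. In Lhx2, the short transcript ENSMUST00000133661 had 3.03% of the count of the highest transcript in layer B replicate 3, 8.55% in layer C replicate 2 and 13.3% to 23.8% in the other 7 samples. Layer C replicate 3 had 57.7 normalized CPM of Nr4a2, a nuclear receptor gene high in claustrum and endopiriform neurons, where the other layer C samples had 8.71 and 14.3. Layer C replicate 2 had 57.1% of its counts in mitochondrial ribosomal RNA, where the other layer C samples had 29.8% and 20.5%. The oligodendrocyte sum was 230 in layer B replicate 3 (48.2 and 53.4 in the others of its layer) and 496 in layer C replicate 3 (145 and 151 in the others). In the joint test of the 3 layers, Lmo3 was not called without layer B replicate 3 (adjusted p = 0.0686) or layer C replicate 3 (adjusted p = 0.051). Neurod6 was not called without layer C replicate 3 (adjusted p = 0.0525). Prdm8, not called with all samples, was called without layer B replicate 3 (adjusted p = 0.0146) or layer C replicate 3 (adjusted p = 0.0279). Other samples changed joint calls too. Lmo3 also lost its call without layer A replicate 1 or 3, layer B replicate 1 or layer C replicate 1, and Neurod6 without layer A replicate 1. Prdm8 was also called without layer B replicate 1 or 2. Lmo4 lost the call in 5 of 9 fits and Neurod2 in 3, and Bhlhe22 gained it without layer B replicate 2.

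Neurod1, which drives neuronal differentiation and survival, was the member with the largest difference between layers A and B. Its level was 1.44, 1.74 and 1.70 normalized CPM in layer A replicates 1, 2 and 3, 8.85, 7.11 and 11.9 in layer B and 5.84, 7.91 and 2.28 in layer C. Every layer A sample lay below every sample of the other layers, and layers B and C overlapped, with layer C replicate 3 closest to layer A. The log2 fold change of layer A against layer B was -2.51 ± 0.46 (SE; adjusted p = 0.00196), or 5.70-fold lower, and it was called in all 9 fits that left out 1 sample. Against layer C the change was -1.69 ± 0.45 (adjusted p = 0.0255). That call was lost without any one of the 3 layer A samples, layer C replicate 1 or layer C replicate 2 (adjusted p = 0.0692 to 0.107, log2 fold change -1.73 to -1.31). The transcript, ENSMUST00000041099 (chr2:79452521-79456751, minus strand, 2 exons), shares 201 of its 2729 bases with an exon of Cerkl on the same strand and 154 with Gm26755 on the opposite strand, and libraries without strand cannot separate these.

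Neurod2, a factor needed for synapse maturation in cortical neurons, followed the same order with smaller differences. Normalized CPM were 3.81, 4.54 and 11.3 in layer A, with 17.1, 18.9 and 25.5 for layer B and 16.8, 16.9 and 15.3 for layer C. Layer A lay below both other layers, its replicate 3 highest, and layer B lay just above layer C without overlap. Layer A was lower than layer B by a log2 fold change of -1.62 ± 0.39 (SE; adjusted p = 0.0106), and lower than layer C by -1.29 ± 0.39 (adjusted p = 0.0445). Leaving out layer A replicate 1 or 2 ended the call against layer B (adjusted p = 0.0533 to 0.0579). The call against layer C was lost without layer A replicate 1 or 2, layer B replicate 1 or 2, or any layer C sample (adjusted p = 0.0502 to 0.175), and without layer A replicate 3 its change was -1.95 (adjusted p = 0.00739). Neurod2 (ENSMUST00000041685) lies at chr11:98325415-98329648 on the minus strand, in 2 exons.

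Neurod6, a factor of mature pyramidal neurons that the study had placed in its own table of layer candidates on these samples, was the member with the largest difference between layers A and C. The counts were 2, 1 and 52 in layer A, so replicates 1 and 2 were at or under the limit of detection, and replicate 3 carried nearly all layer A reads. In normalized CPM the levels were 0.169, 0.0668 and 1.30 in layer A, with 2.16, 1.71 and 4.33 for layer B and 4.71, 4.08 and 14.3 for layer C. Layer A lay below both other layers, layers B and C overlapped, and layer C replicate 3, with 1678 counts, stood above all other samples. The log2 fold change of layer A against layer C was -3.67 ± 0.77 (SE; adjusted p = 0.00844), and it stayed called in all 9 fits that left out 1 sample, at -2.87 without layer C replicate 3 and -6.05 without layer A replicate 3. Against layer B it was -2.17 ± 0.74 (adjusted p = 0.0579), which passed the test without layer A replicate 3 (-4.54, adjusted p = 0.00632). With so few reads in layer A, these fitted changes depend on how the fit treats low counts and are not bounds. Layer B against layer C gave -1.50 ± 0.68, with an unadjusted p of 0.0421, and was not called. Neurod6 (ENSMUST00000044767) lies at chr6:55677822-55681263 on the minus strand, in 2 exons.

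Bhlhe22, a bHLH repressor that acts with Prdm8 in cortical projection neurons, was not called in any comparison. Layer A gave 6.77, 6.95 and 9.28 normalized CPM, layer B 13.3, 9.68 and 35.8 and layer C 9.05, 8.87 and 3.28. Layer B lay above both other layers without overlap, layers A and C overlapped, and layer B replicate 3 was far above the rest. The log2 fold change was -1.35 ± 0.49 (SE; adjusted p = 0.0725) for layer A against layer B and -0.53 without layer B replicate 3 (adjusted p = 0.406). Leaving out layer B replicate 2 instead gave -1.65 (adjusted p = 0.0339). For layer B against layer C it was 1.48 ± 0.49, with an unadjusted p of 0.00813 and an adjusted p of 0.846. Without layer B replicate 3 that difference was 0.67 (adjusted p = 0.636). Bhlhe22 (ENSMUST00000026120) is a single exon at chr3:18054174-18057517 on the plus strand.

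Prdm8, the PR-domain partner of Bhlhe22 and also a gene of the study's own table on these samples, was lower in layer A than in both other layers. Its values were 3.81, 1.54 and 3.22 normalized CPM in layer A, 5.08, 6.23 and 15.5 for layer B and 12.7, 12.9 and 4.68 for layer C. Layer A did not overlap with either layer, while layers B and C spanned each other, with a high replicate 3 in layer B and a low replicate 3 in layer C. The log2 fold changes were -1.64 ± 0.52 (SE; adjusted p = 0.0406) against layer B and -1.82 ± 0.52 (adjusted p = 0.0351) against layer C. The first call was lost without any layer A sample, layer B replicate 3, layer C replicate 1 or layer C replicate 2 (adjusted p = 0.0508 to 0.166), and without layer B replicate 3 the change was -0.93. The second was lost without any layer A sample, layer C replicate 1 or layer C replicate 2 (adjusted p = 0.0732 to 0.148). Without both layer B replicate 3 and layer C replicate 3, layer A stayed below layer C (-2.14, adjusted p = 0.00113) and the change against layer B was -0.93 (adjusted p = 0.0918). In the annotation, 1411 of the 4553 bases of the Prdm8 transcript ENSMUST00000112959 (chr5:98180978-98188991, plus strand, 4 exons) overlap an antisense gene, A730035I17Rik, and reads of both cannot be told apart. Where Prdm8 and Bhlhe22 are set side by side, the partners differed in their values in layer C, where Prdm8 stood above layer A and Bhlhe22 did not; the difference between the genes was not tested.

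Lmo3, a LIM-only cofactor and another gene of the study's table, had the highest level per kilobase of transcript in layers A and B. The normalized CPM were 114, 187 and 78.5 in layer A, with 352, 242 and 378 for layer B and 178, 201 and 117 for layer C. Layer B lay above both other layers, and layers A and C overlapped. The log2 fold change of layer A against layer B was -1.36 ± 0.35 (SE; adjusted p = 0.0146), a call lost without layer A replicate 1, layer A replicate 3 or layer B replicate 1 (adjusted p = 0.0581 to 0.0654). Against layer C it was -0.38 ± 0.34 (adjusted p = 0.557), with -0.77 without layer A replicate 2 (adjusted p = 0.247) and -0.12 without layer A replicate 3 (adjusted p = 0.88). For layer B against layer C the change was 0.97 ± 0.35, with an unadjusted p of 0.0131 and an adjusted p of 0.935. The highest transcript was ENSMUST00000162772 (chr6:138362918-138581968, minus strand, 5 exons), which is not the transcript in the study's table. The transcript in that table, ENSMUST00000161450, was also called lower in layer A than layer B (-1.59 ± 0.38, adjusted p = 0.0102). Of the other Lmo3 transcripts, only ENSMUST00000162932, a shorter form away from the 3' end, differed in its call. Its change of -1.41 between layers A and B was not called (adjusted p = 0.072).

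Lmo4, a LIM-only cofactor with roles in cortical area identity, was highest in layer C on average. In layer A the normalized CPM were 16.6, 15.3 and 17.6, in layer B 24.6, 20.7 and 64.8 and in layer C 48.7, 63.2 and 33.8. Layer A was below both other layers, layer B replicates 1 and 2 lay below every layer C sample, and layer B replicate 3 lay above every one. Layer A was lower than layer C by a log2 fold change of -1.56 ± 0.41 (SE; adjusted p = 0.0227), a call lost without any layer A sample, layer C replicate 1 or layer C replicate 2 (adjusted p = 0.0595 to 0.0889). Against layer B the change was -1.15 ± 0.40 (adjusted p = 0.0627). It was -0.40 without layer B replicate 3 (adjusted p = 0.401) and -1.41 without layer B replicate 2 (adjusted p = 0.0301). Layer B against layer C gave -0.40 ± 0.39, and -1.14 without layer B replicate 3 (adjusted p = 0.159). The transcript was ENSMUST00000120539 (chr3:144188530-144205220, minus strand, 5 exons). The forms ENSMUST00000124891 and ENSMUST00000134961, both annotated as retaining an intron, were not called between layers A and C. Their changes were -0.73 (adjusted p = 0.562) and -0.31 (adjusted p = 0.761), and their mean counts were 45.1 and 65.9, where the highest transcript had 1465.

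Lhx2, a LIM-homeobox factor that sets cortical identity in development, ran against the other members. Its normalized CPM were 44.3, 45.9 and 37.7 in layer A, with 23.5, 26.4 and 31.6 for layer B and 31.7, 22.4 and 14.9 for layer C. Every layer A sample was above every sample of layers B and C, and layers B and C overlapped. The log2 fold changes did not pass the test, at 0.65 ± 0.31 (SE; adjusted p = 0.18) against layer B and 0.89 ± 0.31 (adjusted p = 0.0816) against layer C. The latter was called without layer B replicate 3 (0.90, adjusted p = 0.04). Lhx2 (ENSMUST00000000253) lies at chr2:38350759-38369733 on the plus strand, in 5 exons.

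Emx1, a homeobox gene that marks the pallial lineage of excitatory neurons and their astrocytes, had the lowest mean count of the members. The counts were 3, 3 and 47 in layer A, with 56, 51 and 37 for layer B and 36, 0 and 170 for layer C, or 0 to 1.45 normalized CPM. All layers overlapped, and no difference was detectable at this depth (log2 fold change -0.83 ± 0.85 for layer A against layer B and -0.48 ± 0.85 for layer A against layer C). Layer A replicate 3 held 47 of the layer A counts, and without it the changes were -2.21 (adjusted p = 0.212) and -1.85 (adjusted p = 0.344). Without layer A replicate 2 they were -0.46 and -0.11. The transcript was ENSMUST00000045942 (chr6:85187438-85204358, plus strand, 3 exons).

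Mef2c was lower in layer A than both other layers, a call made in all 9 fits that left out 1 sample. Normalized CPM were 72.7, 126 and 120 in layer A, with 397, 301 and 354 for layer B and 306, 346 and 235 for layer C. Layer A lay far below both other layers, and layers B and C overlapped. The log2 fold change was -1.72 ± 0.30 (SE; adjusted p = 0.00146) against layer B, or 3.30-fold lower, and -1.48 ± 0.30 (adjusted p = 0.00722) against layer C, or 2.78-fold lower. Without layer B replicate 3 and layer C replicate 3 the changes were -1.66 and -1.59. Mef2c (ENSMUST00000163888) lies at chr13:83504240-83667078 on the plus strand, in 12 exons.

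**Figure D3:**
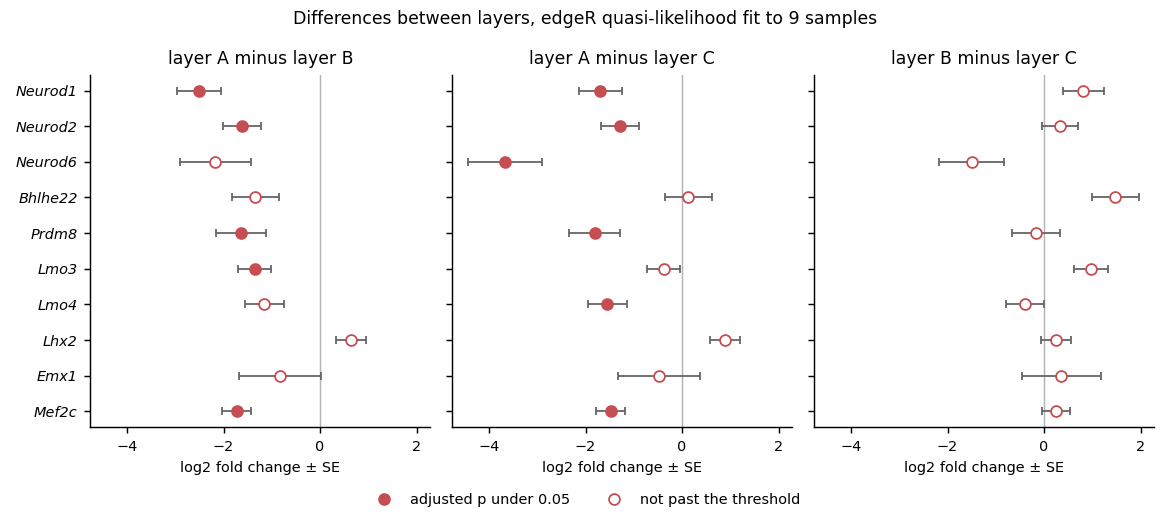
Log2 fold changes of the 10 genes in the 3 comparisons of layers, each as the first layer minus the second with its standard error; filled points passed an adjusted p of 0.05 in edgeR's quasi-likelihood test on all 9 samples. Filled points lie to the left, lower in layer A, for 5 genes against layer B and 6 against layer C, and none is filled for layer B against layer C.

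Without the test, the samples themselves separated in most comparisons with layer A. Every layer A sample was below every layer B sample for 8 of the 10 members, where 18.9% of the highest transcripts did so, and below every layer C sample for 6, where 16.6% did. Between layers B and C, 3 members (Neurod2, Bhlhe22 and Lmo3) did not overlap, all higher in layer B, against 9.64% of the highest transcripts in either direction.

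Compared per kilobase of transcript, Lmo3 had 34.5 ± 15.0 normalized CPM per kilobase in layer A and 88.3 ± 19.7 in layer B (SD, n = 3), above Mef2c at 16.9 ± 4.64 and 55.9 ± 7.61, with no overlap between the genes. In layer C the order turned, with Mef2c at 47.1 ± 8.88 and Lmo3 at 45.0 ± 11.9, which overlapped. Lhx2 (15.0 ± 1.53) overlapped with Mef2c in layer A and stood above Lmo4 (9.89 ± 0.693), while Lmo4 stood above Lhx2 in layer B (22.0 ± 14.6 against 9.56 ± 1.45) and layer C (29.1 ± 8.81 against 8.10 ± 2.95). The bHLH genes, Prdm8 and Emx1 filled the lower ranks, with means per kilobase from 0.238 (Neurod6) to 2.29 (Bhlhe22) in layer A, 0.685 (Emx1) to 6.52 (Neurod2) for layer B and 0.498 (Emx1) to 5.19 (Neurod2) for layer C. Among these lower ranks, neighbours in the order overlapped in every layer except Neurod2 and Prdm8 in layer A.

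Since the pan-neuronal markers differed between layers, each member was also set against the summed pan-neuronal markers of the same sample, as a log2 ratio with 0.5 count added. Snap25 made up most of that sum, with 585 of 876 normalized CPM in layer A replicate 1 and 4302 of 5619 in layer B replicate 3. Layer B replicates 1 and 2 had 1758 and 1351 of Snap25, so the ratios of layer B depend much on that gene in its replicate 3. The median log2 fold changes of the pan-neuronal list were -1.60 for layer A against layer B and -1.43 for layer A against layer C. Those of all highest transcripts were -0.16 and -0.02, so a gene of unchanged level stands higher in layer A as a ratio. Over the 30 comparisons (10 genes, 3 pairs of layers), 10 did not overlap: 3 of 10 for layer A against layer B, where 70.8% of the highest transcripts did not overlap on the same scale, 3 of 10 for layer A against layer C (73.7%) and 4 of 10 for layer B against layer C (7.41%). With 3 samples against 3, the smallest two-sided exact permutation p is 0.1, and 0.3 after adjustment over the 30 comparisons, so no single ratio could pass the threshold. On this scale Mef2c differed by -0.01 between layers A and B and 0.15 between layers A and C, and Neurod2 by -0.04 and 0.17. All 4 of those comparisons overlapped (exact permutation p = 0.8 to 1.0).

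The members with separate layers on this scale were Lhx2, Bhlhe22, Lmo4, Neurod6 and Lmo3. Lhx2 had a mean log2 ratio of -4.50 ± 0.539 in layer A, -6.91 ± 0.556 for layer B and -7.10 ± 0.345 for layer C (SD, n = 3), so it was higher in layer A by 2.40 and 2.60. Bhlhe22 was ordered from layer A down to layer C, at -6.98 ± 0.165, -7.60 ± 0.272 and -8.88 ± 0.622, with no overlap between any layers. Lmo4 was lowest in layer B, at -6.66 ± 0.195, where layers A and C had -5.87 ± 0.298 and -6.01 ± 0.293. The lower pan-neuronal sum of layer A raises the layer A ratio of every gene. In normalized CPM, Bhlhe22 had its highest mean in layer B and Lmo4 its lowest mean in layer A. Neurod6 was highest in layer C, at -8.86 ± 1.20, where layers A and B had -11.6 ± 1.52 and -10.3 ± 0.0166. Lmo3 was higher in layer B than in layer C by 0.89, and layer A overlapped with both. Every comparison named in this paragraph as separate had an exact permutation p of 0.1 and an adjusted p of 0.3.

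**Figure D4:**
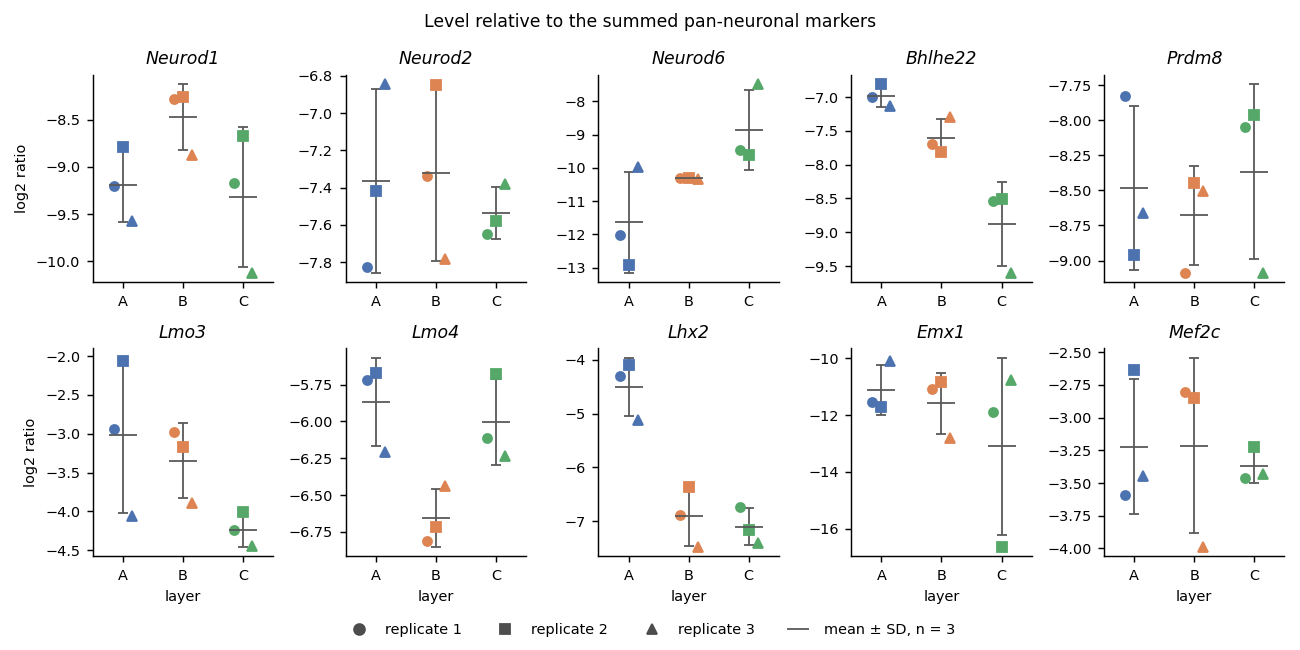
Log2 ratio of each gene to the summed pan-neuronal markers of the same sample, by layer, with a shape for each replicate number and bars for the mean ± SD of 3 samples. Mef2c and Neurod2 overlap between all layers, Lhx2 is highest in the 3 layer A samples, Neurod6 is highest in layer C, and Bhlhe22 is ordered from layer A down to layer B and layer C. The pan-neuronal sum is lower in layer A, which raises the layer A ratios of all genes. The lowest Emx1 point is a sample with 0 counts.

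The partners and relatives of the members were 28 genes: E proteins, Id proteins and other bHLH genes, LDB and SSBP cofactors and other LIM genes, MEF2 factors and their class IIa histone deacetylases, Emx2 and Prdm13. Of these, 21 were tested. Between layers A and B, 4 were higher in layer A and 0 lower, where 13.2% of the highest transcripts were called higher. Between layers A and C, 3 were higher (9.33% of the highest transcripts) and 1 was lower. Between layers B and C, edgeR called 0 of the 21 and DESeq2 also 0, and an unadjusted p under 0.05 was reached by 1.

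The Id genes encode helix-loop-helix proteins that lack a DNA-binding region and sequester the E proteins with which NeuroD factors pair, and they are known in astrocytes. Id3 had 10.6, 11.5 and 19.3 normalized CPM in layer A, 0.674, 0.577 and 1.54 for layer B and 0.663, 2.10 and 2.15 for layer C. It was higher in layer A by log2 fold changes of 3.89 ± 0.54 (SE; adjusted p = 0.000345) and 3.08 ± 0.52 (adjusted p = 0.0032). Id4, which the study's table of candidates from these samples also holds, had 52.5, 27.4 and 22.9 in layer A, with 1.59, 2.06 and 8.72 for layer B and 3.58, 8.04 and 5.58 for layer C. It was higher in layer A by 3.05 ± 0.59 (adjusted p = 0.00273) and 2.59 ± 0.58 (adjusted p = 0.0112), the latter lost without layer A replicate 1 or layer C replicate 1 (adjusted p = 0.0599 to 0.0789). Both genes moved with the astrocyte list given above, whose part was not tested.

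Emx2, the close relative of Emx1, had 4.18 normalized CPM per kilobase in layer A on average, where Emx1 had 0.347. Its normalized CPM were 18.2, 8.48 and 9.85 in layer A, 1.21, 0.60 and 4.97 for layer B and 2.72, 3.44 and 1.58 for layer C. The differences were 2.42 ± 0.63 (SE; adjusted p = 0.0151) and 2.25 ± 0.63 (adjusted p = 0.0306). The first was lost without layer A replicate 1 or layer B replicate 1 (adjusted p = 0.0555 to 0.0806), and the second without any one sample of layers A and C (adjusted p = 0.0523 to 0.136). Tcf12, an E protein, had 27.9, 17.0 and 15.6 in layer A against 5.39, 5.70 and 7.87 in layer B, a difference of 1.67 ± 0.39 (adjusted p = 0.00874) that was lost without layer A replicate 1 (adjusted p = 0.0502). Ldb2, the cofactor that LIM-only and LIM-homeobox proteins bind, was the gene lower in layer A than layer C, with 3.81, 2.47 and 5.06 against 8.76, 8.80 and 15.7 (-1.55 ± 0.39, adjusted p = 0.0189). That call was lost without layer A replicate 1 or 2 or layer C replicate 1 or 3 (adjusted p = 0.056 to 0.0904). Layers B and C did not overlap for Ldb2, with 4.36, 4.55 and 5.87 in layer B (adjusted p = 0.786). Some genes not called with all samples passed the test without layer B replicate 3 and are named here after their values were seen: between layers A and B these were Id1 (4.31, adjusted p = 0.00265), Id2 (1.34, adjusted p = 0.00747) and Lmo2 (2.06, adjusted p = 0.00229), all higher in layer A.

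The upstream sequences of the members were searched for the words that bHLH factors bind. RefSeq promoters of GRCm38.p6 were matched for 9 members, with 14 promoters, and the 250 bases before each start were read. An E-box (CANNTG, which reads the same on both strands) was present in 10 of the 14 promoters, from 8 members, and in 66.2% of 32851 promoters of the same length. CAGATG, searched on both strands, was in 1 promoter each of Neurod2 and Mef2c and in 14.4% of all promoters. CAGCTG was in the promoter of Prdm8 and in 13.0% of all. CAGATG and CAGCTG are themselves E-boxes and are counted in both. The MEF2 element was in no member promoter and in 0.508% of all.

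The 3 upstream sequences below belong to the members in the study's table of candidates, Neurod6, Prdm8 and Lmo3, which had their highest mean in layers C, C and B. Capitals mark the E-boxes, and each sequence is given on the strand of its gene, at chr6:55681264-55681513 (minus strand), chr5:98180619-98180868 (plus strand) and chr6:138581969-138582218 (minus strand).
Neurod6: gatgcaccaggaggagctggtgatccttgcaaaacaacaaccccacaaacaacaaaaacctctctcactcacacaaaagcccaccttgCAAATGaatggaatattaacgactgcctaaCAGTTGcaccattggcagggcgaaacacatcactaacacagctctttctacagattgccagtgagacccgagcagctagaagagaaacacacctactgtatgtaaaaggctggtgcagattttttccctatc
Prdm8: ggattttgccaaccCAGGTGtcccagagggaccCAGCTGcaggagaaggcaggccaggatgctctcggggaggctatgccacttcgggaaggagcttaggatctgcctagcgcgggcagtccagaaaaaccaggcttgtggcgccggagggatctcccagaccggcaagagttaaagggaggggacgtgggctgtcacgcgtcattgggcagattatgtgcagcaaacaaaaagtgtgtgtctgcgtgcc
Lmo3: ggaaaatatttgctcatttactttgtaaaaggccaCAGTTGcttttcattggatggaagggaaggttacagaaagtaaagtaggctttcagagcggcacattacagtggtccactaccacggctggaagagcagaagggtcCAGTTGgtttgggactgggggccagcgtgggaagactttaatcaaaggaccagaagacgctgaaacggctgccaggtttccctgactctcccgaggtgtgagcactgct
Each holds 2 E-boxes. Their first bases lie 162 and 132 bases before the start in Neurod6, 236 and 217 in Prdm8 and 215 and 109 in Lmo3. These are matches of letters and do not show that any factor binds there.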

How the data were processed

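RNA of 9 laser-captured samples was amplified with the Ovation system, and strand non-specific libraries were sequenced as paired-end reads of 50 bases. Alignment to mm10 was done by the authors with Bowtie, and the deposited values are raw counts for each Ensembl transcript. Processing notes also name bcl2fastq 1.8.4 and HTSeq 0.5.3. Treatment of reads that overlap several transcripts is not given in the sources used here, so counts of a gene's transcripts are not independent. Amplified reads without molecular identifiers are not independent molecules, and limits of detection cover counting error only.

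Identifiers were joined to GENCODE release M21 of GRCm38 (82779 of 95533, 86.6%). The filter on the deposited counts asked for 10 or more in 3 or more samples and kept 56416 transcripts. TMM normalization and testing used edgeR 4.0.16 under R 4.3.3 (quasi-likelihood test, all 9 samples, Benjamini-Hochberg adjustment over all transcripts, threshold 0.05). Normalized CPM are counts scaled to the TMM-adjusted library size. All 27 member transcripts passed the filter. On simulated data for layer A against layer B (54611 transcripts, 200 given a log2 change of 2), 26.5% were recovered with 0 false calls. The real data gave 9329 calls among 56416 transcripts in that comparison. With so few changed transcripts the adjustment was stricter in the simulation, so its 26.5% does not measure recovery in the real data. Alternatives were another normalization, DESeq2 1.42.0, other filters, the highest transcript of each gene only, no mitochondrial transcripts, a replicate block, only the 6 samples compared, and each sample left out. Members and lists were chosen with earlier results of these data known. The text names all members, every partner or relative called between layers, the 2 genes of a marker list with the highest mean count, and the other member transcripts whose call differed. Some genes of the marker lists are not reported here. The samples that stand apart were singled out after their values were seen.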

Additional observations from a re-analysis of the deposited data

How the results depend on the processing

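The number of members called between layers A and B was 5, and it was 8 with no filter on low counts and 8 with the highest transcript of each gene only. Over all tested transcripts, the calls in these settings were 9329 of 56416, 10795 of 79414 and 3693 of 15180. Leaving out 1 sample gave 2 to 7 members for layer A against layer B, 2 to 7 for layer A against layer C, 2 to 8 for any difference among the layers (6 with all samples) and 0 to 0 for layer B against layer C. The lowest counts came without layer A replicate 1 (2 and 2 in the comparisons with layers B and C), layer A replicate 2 (3 and 2), layer A replicate 3 (3 with layer C), layer C replicate 1 (2 with layer C) and layer C replicate 2 (2 with layer C). Calls over all transcripts also fell in these fits. Between layers A and B they went from 9329 to 5570 without layer A replicate 1 and 6333 without layer A replicate 2. Between layers A and C they went from 6389 to 2727, 3238 and 5020 without layer A replicates 1, 2 and 3. Without layer C replicates 1 and 2 they were 1369 and 3785. Leaving out 1 sample gave 2 to 7 partners and relatives between layers A and B, 1 to 7 between layers A and C and 0 to 0 between layers B and C, and leaving out both layer B replicate 3 and layer C replicate 3, chosen after seeing the data, gave 7 between layers A and B in place of 4. Over all transcripts, the fit without both called 11322 of 52841 between layers A and B. Separate log2 ratios numbered 10 of 30 against the pan-neuronal markers, 23 against the summed glutamatergic markers, which Camk2a dominates, 6 against Slc17a7 alone and 10 to 14 with 1 sample left out. A layer with fewer samples separates from another more easily, so the last range cannot be set against the count with all samples.

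Directions turned for small differences that passed no test. Without layer B replicate 3 and layer C replicate 3, Bhlhe22 between layers A and C was -0.19, Emx1 between layers A and C 0.30 and Lhx2 between layers B and C -0.15 (log2). With 1 sample left out, Bhlhe22 between layers A and C ran from -0.20 to 0.36 (negative without layer A replicate 3, at -0.02, or layer C replicate 3), Prdm8 between layers B and C from -0.87 to 0.085 (positive without layer B replicate 1, layer B replicate 2 or layer C replicate 2, the last 2 at 0.01 and 0.04), Emx1 between layers A and C from -1.85 to 0.30 (positive without layer C replicate 3), Emx1 between layers B and C from -0.14 to 1.10 (negative without layer C replicate 2) and Lhx2 between layers B and C from -0.023 to 0.50 (negative without layer C replicate 3). The cause was not tested. The deviations of same-numbered samples from their layer means correlated over 0.1 in 4 of 9 pairs (-0.19 to 0.24 over the 9 pairs). These correlations cannot decide whether the numbers pair the samples, since other differences between samples also enter them, and nothing states a pairing. With the replicate block, 5, 6 and 0 members were called in the 3 comparisons, 6 for any difference, and 5, 5 and 0 partners and relatives. For the log2 ratios, the block counted comparisons whose 3 same-numbered differences had the same sign, which were 15 of 30. That is another measure than layers that do not overlap, and it cannot be set against the count of separate ratios. Neurod6 was called between layers A and B (adjusted p = 0.00308) and Prdm8 was not (adjusted p = 0.0529). Amplification, 3 samples per layer and the low counts of Neurod6 and Emx1 limit what these samples can resolve.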
